A study of Mus musculus with 3 samples.

Results

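The heat shock chaperones of the cytosol and mitochondria were described in cultured mouse keratinocytes with and without RASSF9, a Ras-association domain protein of the epidermis. Within the family, members were taken by gene symbol alone, but the family itself was chosen with earlier results of these data known. They were the genes whose probe sets carried a single symbol beginning with Hspa, Hspb, Hspd, Hspe, Hsph, Hsp90a, Dnaja, Dnajb or Dnajc and a number, without the endoplasmic reticulum (ER) chaperones Hspa5, Dnajb9, Dnajb11 and Dnajc3. The rule gave 65 genes of the 18193 with a probe set of 1 symbol, and each was represented by its brightest probe set. Of the 65, 53 passed the filter on low signal and were tested among 11089 genes, and 10 lay under the bacterial control level of 78.4 signal units on all 3 arrays. Hsp90ab1 and Hsf1 were not analysed here, since no probe set carried their symbol alone. The label holds for most but not all members: the symbol rule also took Hspa13, Dnajc1 and Dnajc10, whose products lie in the ER.

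RNA came from primary epidermal keratinocytes of neonatal ICR mice, grown in a defined serum-free keratinocyte medium, with 1 WT array and 2 RASSF9-/- arrays, each from a culture plate of its own. The RASSF9-/- mice belong to a single line, in which an Epstein-Barr virus LMP1 transgene with its own promoter sits in a deleted stretch of a RASSF9 intron, so these cells carry that transgene as well as the loss of RASSF9. The labels give 24 h of culture for WT and 48 h for RASSF9-/-, while the study's methods give a single culture time for all, and if the labels hold then genotype and culture time cannot be told apart. The names of the arrays also carry a date code, which WT shared with RASSF9-/- array 1 and not with array 2.

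Rassf9 gave a signal of 478.1 in WT, 59.6 on RASSF9-/- array 1 (under the bacterial control level) and 120.2 on array 2. All 3 arrays were scaled to the same trimmed mean, and their median signals were 90.8, 99 and 81.7. Of 9 annotated keratinocyte markers, 8 were above the bacterial controls on every array, and Krt15 was under them on all. Their signals summed to 133712 in WT and to 103269 and 127765 in RASSF9-/-. Trp63 gave 3239.3 in WT and 1459.9 and 1542.9 in RASSF9-/-. Krt5, Itgb4, Perp and Sfn were also lower on both arrays, Krt14 was higher on both, and Itga6 and Col17a1 lay on either side of WT. Of other cell types, 7 of 7 melanocyte markers were above the controls on every array, with summed signals of 29399 in WT and 24999 and 35285 in RASSF9-/-. Of 7 annotated fibroblast markers, 6 were above them in WT, 7 on array 1 and 5 on array 2, with sums of 2618, 2343 and 3643. The largest part of each sum was Vim, at 1298.7 in WT and 1308.1 and 2832.3 in RASSF9-/-. Col1a1 (429.4 in WT, 243.2 and 143.4 in RASSF9-/-) and Col1a2 (460 in WT, 247.2 and 165.6 in RASSF9-/-) were lower on both arrays, and the remaining markers were mixed. Leukocyte markers summed to 375 in WT and to 816 and 356 in RASSF9-/-, with 1 of 8 above the controls in WT, 4 on array 1 and 1 on array 2. The part of any of these cell types in the chaperone values was not tested. In bulk RNA such as this, fewer cells of a type and less RNA per cell cannot be told apart.

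Chaperones bind unfolded or partly folded proteins and keep them from aggregating. HSP70 proteins cycle between ATP and ADP on a client: J-proteins (the Dnaj genes) bring clients and speed up ATP hydrolysis, and HSP110 proteins and BAG proteins release the ADP again. HSP90 takes over late clients such as kinases and steroid receptors, small heat shock proteins hold clients without ATP, and chaperonins enclose them in a chamber. Mitochondria have a set of their own, with Hspa9 (mortalin) pulling in and folding imported proteins and the chaperonin pair Hspd1 (HSP60) and Hspe1 (HSP10) folding them in the matrix. Heat shock factor 1 induces many of these genes through the heat shock element, a run of alternating GAA units and their reverse complement.

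The stretch below holds the heat shock elements found before the starts of the chaperonin pair and of Dnajb6, and it is shown because Hspd1 and Hspe1, which had the largest positive mean differences among the tested members, share it. The promoters came from RefSeq (GRCm38.p6), from 250 bases before to 50 bases after each start, and 52 of the 65 members matched an entry. Capitals mark the elements, each 3 alternating units with 2 bases between neighbours and 13 bases in all, searched on both strands. The first 2 lines are the same interval, chr1:55088053-55088082, read on the plus strand for Hspe1 and on the minus strand for Hspd1, and the third is chr5:29735846-29735870 on the plus strand.
Hspe1: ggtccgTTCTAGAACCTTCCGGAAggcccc
Hspd1: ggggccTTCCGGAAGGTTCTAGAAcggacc
Dnajb6: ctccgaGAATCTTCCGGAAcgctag

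Hspd1 and Hspe1 lie head to head, and the capitals of their shared stretch hold 2 overlapping elements. They began 89 and 84 bases before the Hspe1 start and 144 and 139 bases before the Hspd1 start. A further listed Hspd1 start had no element in its window. The Dnajb6 element began 46 or 127 bases before its 2 listed starts. The other match was Hsph1, with an element 15 or 36 bases after its 2 starts. Elements of this strict form were thus in 4 of 52 members with a promoter (7.69%), against 179 of 27025 genes (0.662%). The 4 are not separate matches, since Hspd1 and Hspe1 count the same stretch and the Hsph1 element lies after its starts. Because members were picked by the symbols of heat shock genes, the 2 shares are no test of the family. The match is a description of letters and says nothing of binding, and no match was found in the windows of the heat-inducible genes Hspa1a and Hspa1b.

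Across the family, no member passed the test at an adjusted p of 0.05 in limma. Over all 11089 genes, 9 passed with higher signal in RASSF9-/- (0.0812%) and 0 with lower signal (0%), and the smallest adjusted p of a member was 0.561. At an unadjusted p of 0.05, 2 of 53 members were higher (Hspd1 and Hspe1), with 3.11% of all genes, and 2 were lower (Hspa1a and Hspb8), with 2.43% of all genes. The members' log2 differences ran from -1.22 to 1.00 with a median of 0.04, and the median of all genes was -0.01. Higher signal than WT on both RASSF9-/- arrays was found for 19 members (35.8%; 33.6% of all genes), and lower signal on both for 19 members (35.8%; 32.7% of all genes). Both differences share the WT array, so an unusual WT value moves them together. These shares were near those of all genes, and what follows describes single members and classes.

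A change of at least 2-fold on both arrays was found for 0 members upward (2.89% of all genes) and for 1, Hspb8, downward (2.24% of all genes). At 1.5-fold, 3 members were higher on both arrays, Hspd1, Hspe1 and Hspa9 (5.66%; 7.08% of all genes). Another 5 were lower, Hspb8, Hspa1a, Hspa2, Dnajb2 and Dnajb12 (9.43%; 6.19% of all genes). WT lay farther from the nearer RASSF9-/- array than the 2 RASSF9-/- arrays lay from each other for 12 members on the higher side (17.4% of all genes) and for 9 on the lower side (14.9% of all genes). All p-values rest on the spread of a single RASSF9-/- pair (1 residual degree of freedom, with 5.31 prior degrees of freedom from limma), and WT had no replicate.

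**Figure D1:**
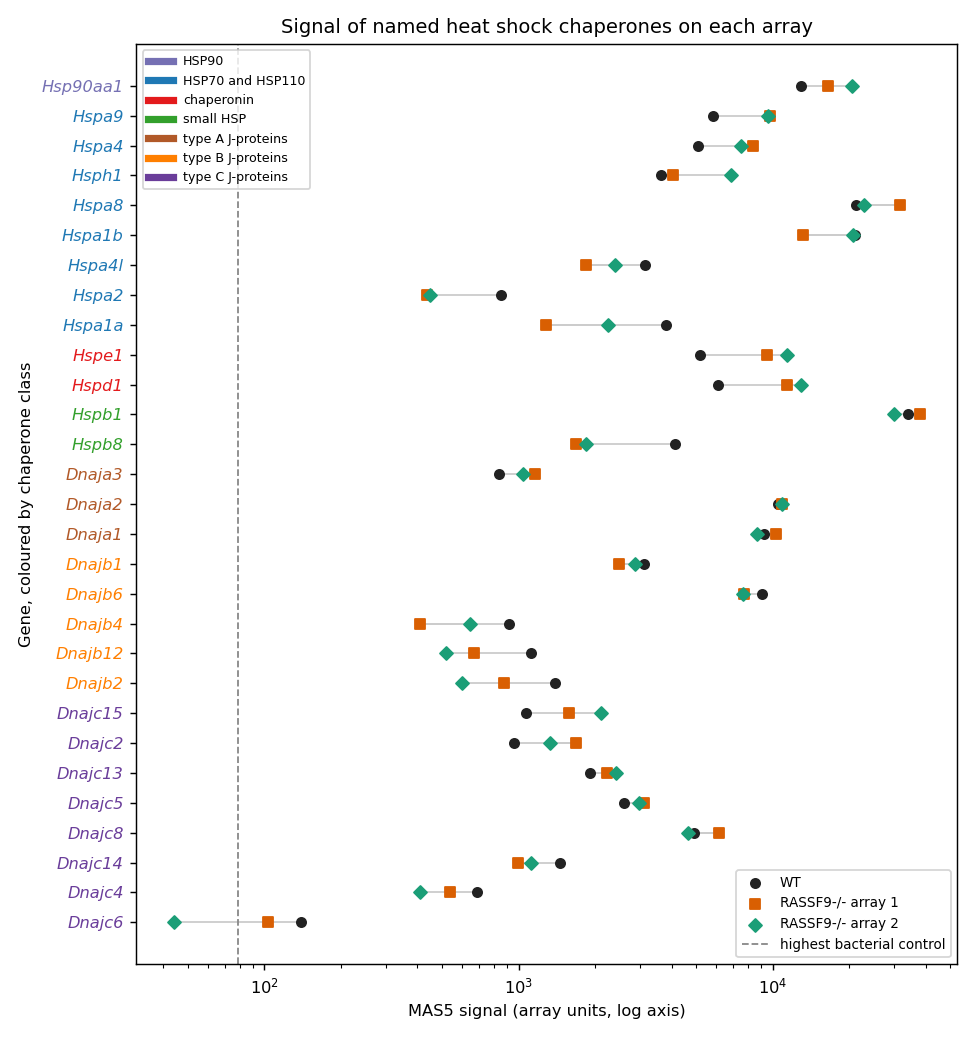
MAS5 signal (array units, log axis) of 29 named members on the WT array (black circle), RASSF9-/- array 1 (square) and RASSF9-/- array 2 (diamond), coloured by class, with the highest bacterial control as a dashed line. For Hspd1 and Hspe1 both RASSF9-/- arrays lie to the right of WT, for Hspb8 and Hspa2 both lie to the left, and only Dnajc6 has an array under the dashed line.

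The mitochondrial chaperonin had the largest positive mean differences of the tested members. Hspd1, the HSP60 ring subunit, gave a signal of 6083.6 in WT, 11381.4 on RASSF9-/- array 1 and 12909.2 on array 2. Hspe1, the HSP10 lid, gave 5190.3 in WT, 9465.4 on array 1 and 11394.3 on array 2. Both RASSF9-/- arrays were above WT for both genes, and the gap to WT was wider than that between the RASSF9-/- arrays. The log2 difference was 0.99 ± 0.31 (SE) for Hspd1, a 1.99-fold higher signal with a 95% interval of 0.24 to 1.75 on the log2 scale and an adjusted p of 0.689 in limma. For Hspe1 it was 1.00 ± 0.32 (SE; 95% interval 0.22 to 1.78; adjusted p = 0.701 in limma). Of all genes tested, 4.96% had a difference at or above that of Hspd1 and 4.86% at or above that of Hspe1. The other Hspe1 probe set gave 1527.2 in WT and 2690.4 and 2717.9 in RASSF9-/-, a log2 difference of 0.82. The Hspe1 probe set used here is of a kind that can match several transcripts, and the other one is not.

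Hspa9, the mitochondrial HSP70, gave 5840.4 in WT, 9735.5 on array 1 and 9572.9 on array 2. The 2 RASSF9-/- values nearly coincided, and the log2 difference from WT was 0.73 ± 0.31 (SE; 95% interval -0.02 to 1.47; adjusted p = 0.911 in limma). All 4 Hspa9 probe sets past the filter had higher signal on both RASSF9-/- arrays, with log2 differences of 0.49 to 1.41. Dnajc15, a J-protein of the mitochondrial inner membrane that takes part in import, gave 1065.3 in WT, 1580.8 on array 1 and 2112.3 on array 2 (log2 difference 0.78 ± 0.39 SE, adjusted p = 0.988 in limma). Both values were above WT. Dnaja3, the matrix J-protein that works with Hspa9, gave 839.4 in WT and 1160.5 and 1036.4 in RASSF9-/-, a log2 difference of 0.39. Its other probe set past the filter gave 341.4 in WT and 351.4 and 335 in RASSF9-/-, a log2 difference of 0.01. Dnajc11, a J-protein of the outer membrane, gave 852.3 in WT and 965.6 and 1258.8 in RASSF9-/-. Its other probe set past the filter gave 452.4 in WT and 309.8 and 474.6 in RASSF9-/-, a log2 difference of -0.24 in the other direction. Dnajc30 gave 1136.6 in WT and 1087.2 and 963.3 in RASSF9-/-.

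The single HSP90 gene among the members was Hsp90aa1, the stress-inducible cytosolic HSP90. Its signal was 12895.6 in WT, 16483.4 on array 1 and 20487 on array 2. Both RASSF9-/- values were above WT, with a log2 difference of 0.51 ± 0.32 (SE; 95% interval -0.26 to 1.29; adjusted p = 1 in limma). The 3 probe sets of Hsp90aa1 past the filter lay between 0.51 and 0.83.

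The HSP70 and HSP110 class held 13 members, of which 10 were tested, 4 with higher signal and 4 with lower signal on both RASSF9-/- arrays (median log2 difference 0.05). By brightest probe set, the heat-inducible HSP70 genes Hspa1a and Hspa1b were among the lower ones and the constitutive Hspa8 among the higher ones. On array 2, however, Hspa1b (-0.03) and Hspa8 (0.09) both lay close to WT on the log2 scale, and the Hspa8 probe sets disagreed in sign. Hspa1a gave 3806.5 in WT, 1279.2 on array 1 and 2245 on array 2. Both RASSF9-/- arrays were under WT, but they also differed from each other by 0.81 on the log2 scale, and the difference was -1.17 ± 0.44 (SE; 95% interval -2.24 to -0.10; adjusted p = 0.83 in limma). Hspa1b, a near-identical neighbour of Hspa1a, gave 21121.8 in WT, 13147.3 on array 1 and 20691.9 on array 2, so that array 2 was close to WT (log2 difference -0.36 ± 0.38 SE). Of its 3 probe sets, 1 gave 14764.7 in WT, 7849.7 on array 1 and 17066 on array 2, with the RASSF9-/- arrays on either side of WT. Because the 2 genes are near-identical in sequence, a probe set of either may take signal from the other, and the values of both are uncertain to that extent.

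Hspa8, the constitutive HSP70 of the cytosol, gave 21332.1 in WT, 31696.1 on array 1 and 22778.3 on array 2. Only array 1 was clearly above WT, and the log2 difference was 0.33 (95% interval -0.49 to 1.16). Its other 3 probe sets past the filter had log2 differences of 0.33, -0.08 and 0.81. The names of the probe set used here and of the other one at 0.33 mark them as open to cross-hybridization. Those at -0.08 and 0.81 are not so marked. The one at -0.08 gave 6456.4 in WT and 5932.8 and 6281 in RASSF9-/-, and the dimmest, at 0.81, gave 190.6 in WT and 336.8 and 332.3 in RASSF9-/-. Hspa2, an HSP70 best known from the testis, gave 856.2 in WT, 437.4 on array 1 and 448.8 on array 2. Its 2 RASSF9-/- values were close together and under WT, with a 1.93-fold lower signal (log2 difference -0.95 ± 0.43 SE, adjusted p = 0.945 in limma).

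The HSP110 proteins, nucleotide exchange factors of HSP70, were mixed. Hspa4 gave 5065.5 in WT and 8397.9 and 7466.1 in RASSF9-/- (log2 difference 0.64 ± 0.32 SE, adjusted p = 0.988 in limma), although 1 of its 3 probe sets lay at -0.42. Hsph1 gave 3630.6 in WT, 4035.7 on array 1 and 6837.3 on array 2, a log2 difference of 0.53 that came mostly from array 2. Its other probe set gave 1785.8 in WT, 1461.8 on array 1 and 3498.3 on array 2. Hspa4l gave 3132.1 in WT and 1849.4 and 2401.7 in RASSF9-/-, a log2 difference of -0.57, with its 5 probe sets between -0.61 and -0.11. The remaining tested HSP70 members, Hspa13 of the ER and Hspa14, a ribosome-associated HSP70, had log2 differences of 0.06 and 0.05 with the RASSF9-/- arrays on either side of WT. Hspa12a, Hspa12b and Hspa1l were under the bacterial controls on all arrays.

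**Figure D2:**
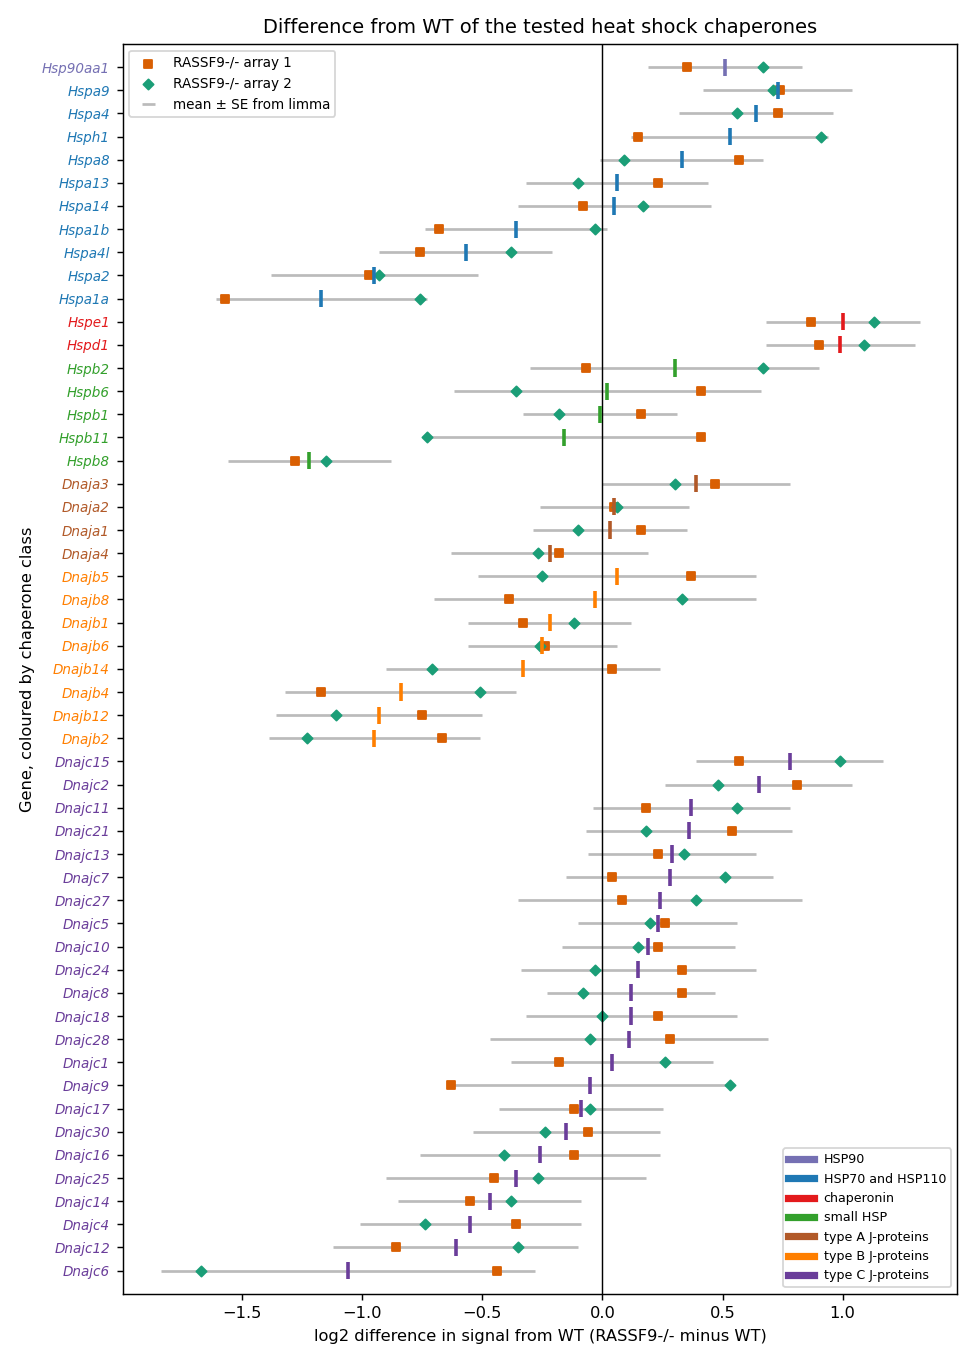
Log2 difference in signal from WT for the 53 tested members, with RASSF9-/- array 1 (square), array 2 (diamond), their mean (coloured bar) and its standard error from limma (grey line), sorted within each class. The chaperonin pair lies near 1, Hspb8 and Hspa1a have the lowest means, and no type B J-protein is higher than WT on both arrays.

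Among the small heat shock proteins, Hspb8 had the lowest mean difference of all tested members. Hspb8, which hands misfolded clients to autophagy together with Bag3 and HSP70, gave 4109.9 in WT, 1687.3 on array 1 and 1847.7 on array 2. Both RASSF9-/- values were under WT and close to each other, a 2.33-fold lower signal (log2 difference -1.22, 95% interval -2.05 to -0.39, adjusted p = 0.561 in limma). Of all genes tested, 3.04% had a difference at or below it, and 3.45% had one at or below that of Hspa1a. A second Hspb8 probe set gave 1477.5 in WT and 827.6 and 587.7 in RASSF9-/- (log2 difference -1.08). The dimmest Hspb8 probe set gave 468.2 in WT, 339 on array 1 and 558.2 on array 2 (log2 difference -0.11), and its name marks it as open to cross-hybridization.

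Hspb1 (HSP25), an abundant small heat shock protein of differentiating keratinocytes, gave 33987.6 in WT, 37997.4 on array 1 and 30047.6 on array 2. The RASSF9-/- arrays lay on either side of WT, and the log2 difference of -0.01 had a 95% interval of -0.78 to 0.76. Hspb2, known from muscle, gave 178.8 in WT and 170.4 and 284.5 in RASSF9-/-. Hspb6, also of muscle, gave 147.8 in WT and 196.8 and 114.9 in RASSF9-/-. Hspb11, an intraflagellar transport protein counted here by its symbol, gave 670.8 in WT and 889.1 and 403.3 in RASSF9-/-. In these 3 members too the RASSF9-/- arrays fell on either side of WT. Hspb3 and Hspb9 were under the bacterial controls on all arrays, and Hspb7 was above them on array 1 alone. The 8 skeletal muscle markers summed to 1076 in WT and to 2813 and 3638 in RASSF9-/-, with 1 marker above the controls in WT, 4 on array 1 and 2 on array 2, and Myh3, Myh8, Tnnt3 and Myog under them on all. Most of each sum was Acta1, skeletal muscle actin, at 930.8 in WT and 2484.4 and 3423.7 in RASSF9-/-. Their part in the small heat shock protein values was not tested.

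Of the 41 J-proteins, 35 were tested, 12 higher and 14 lower on both RASSF9-/- arrays, with a median log2 difference of 0.03. The type A J-proteins, mostly general partners of HSP70, had a median log2 difference of 0.04 over 4 members. Dnaja1 gave 9257.1 in WT and 10342.2 and 8662.2 in RASSF9-/- (log2 difference 0.03, 95% interval -0.74 to 0.81). Dnaja2 gave 10475.5 in WT and 10839.4 and 10901.2 in RASSF9-/- (log2 difference 0.05, 95% interval -0.69 to 0.79). These intervals still allow changes of over 1.5-fold in either direction.

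Type B J-proteins, which include the heat-inducible and anti-aggregation forms, had the lowest median log2 difference of the classes, -0.29, with -0.36 on array 1 and -0.39 on array 2. Of 8 tested, 0 were higher on both arrays (33.6% of all genes), 5 were lower on both (32.7% of all genes) and 3 lay on either side of WT. Dnajb2, a chaperone best known from neurons that directs clients to the proteasome, gave 1395.8 in WT, 879.3 on array 1 and 597 on array 2. Both values were under WT (log2 difference -0.95 ± 0.44 SE, adjusted p = 0.946 in limma). Dnajb12, a J-protein of the ER membrane facing the cytosol, gave 1123.5 in WT and 670 and 520.1 in RASSF9-/-, a log2 difference of -0.93. Its dimmer probe set gave 163.6 in WT and 224.8 and 167.8 in RASSF9-/-, a log2 difference of 0.25 in the other direction. Dnajb4 gave 917.4 in WT and 408.1 and 642.1 in RASSF9-/- (log2 difference -0.84), and its dimmest probe set lay at 0.20.

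The heat-inducible Dnajb1 (HSP40) gave 3120.4 in WT and 2490.7 and 2873.9 in RASSF9-/-, a log2 difference of -0.22 with a 95% interval of -1.05 to 0.61. Dnajb6, which blocks the aggregation of polyglutamine proteins and carried the heat shock element shown above, gave 9106.2 in WT and 7702.3 and 7614.8 in RASSF9-/-. The 2 RASSF9-/- values were close together and under WT, with a log2 difference of -0.25 ± 0.31 (SE). The other members with an element had higher signal on both arrays (33.6% of all genes). These were Hspd1 and Hspe1, which share a stretch, and Hsph1, whose element lies after its starts. The other Hsph1 probe set was under WT on array 1, at 1461.8 against 1785.8. A link between element and signal was not tested.

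**Figure D3:**
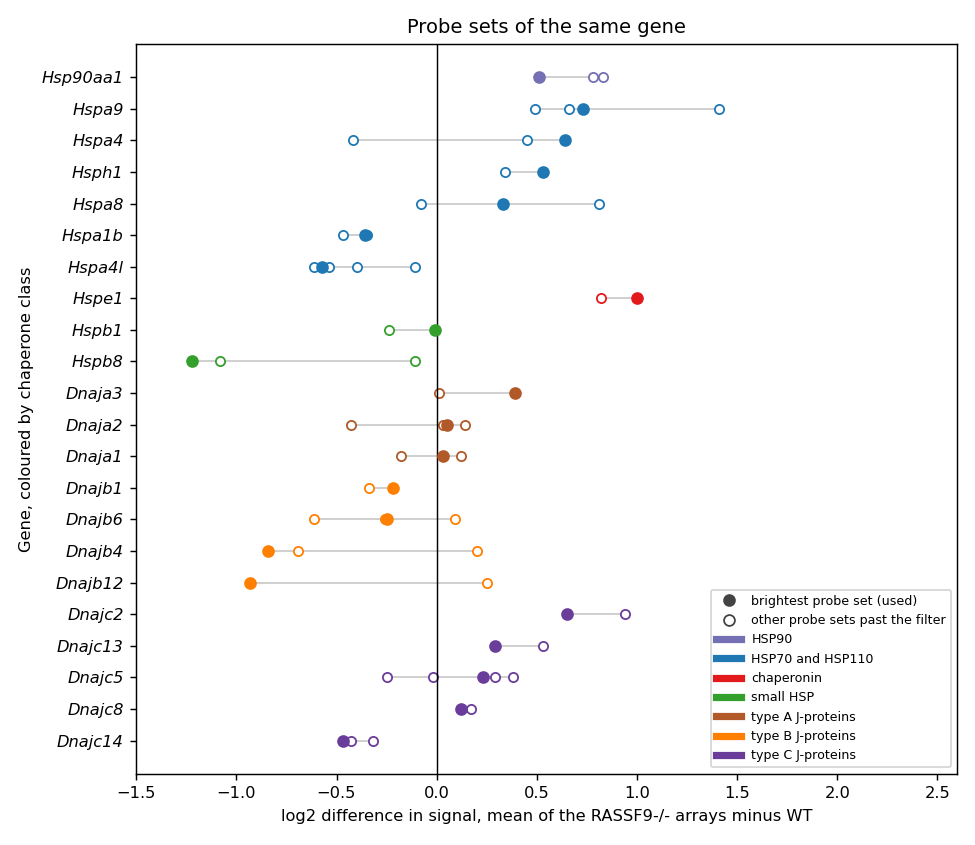
Log2 difference in signal (mean of the RASSF9-/- arrays minus WT) of each probe set past the filter, for named members with more than 1, where the filled dot is the brightest probe set and open dots are the others. Every Hsp90aa1, Hspa9 and Hspe1 dot lies above 0, while the dots of Hspa4, Hspa8, Dnajb4 and Dnajb12 fall on both sides of it.

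Type C J-proteins, which share little beyond the J-domain and serve particular sites in the cell, were spread on both sides, with 10 of 23 tested higher and 8 lower on both arrays and a median of 0.12. Dnajc2, which acts with HSP70 at the ribosome, gave 957.4 in WT and 1681.5 and 1334.6 in RASSF9-/- (log2 difference 0.65). Dnajc13, of endosomes, gave 1902.6 in WT and 2231.5 and 2414.7 in RASSF9-/- (log2 difference 0.29). Dnajc5, the cysteine string protein of secretory vesicles, gave 2606.3 in WT and 3123.2 and 2989.5 in RASSF9-/- (log2 difference 0.23). In their brightest probe sets these 3 were above WT on both arrays. The 5 Dnajc5 probe sets past the filter disagreed in sign, with log2 differences from -0.25 to 0.38. Dnajc8, found with the spliceosome, gave 4920.1 in WT and 6167.4 and 4641.2 in RASSF9-/-, on either side of WT.

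On the lower side, Dnajc14, of the ER membrane, gave 1457.3 in WT and 994.8 and 1120.4 in RASSF9-/- (log2 difference -0.47). Dnajc4 gave 685.8 in WT and 536 and 410.5 in RASSF9-/- (log2 difference -0.55). Dnajc6 (auxilin), which uncoats clathrin vesicles, gave 139.9 in WT, 103.1 on array 1 and 43.9 on array 2, which is under the bacterial controls, so its difference of -1.06 rests on dim values. Dnajc9, a histone-binding J-protein, had RASSF9-/- arrays 1.16 apart on the log2 scale, at 425.3 and 953.2, with WT between them at 658.4. The remaining type C members tested had log2 differences between -0.61 (Dnajc12) and 0.36 (Dnajc21). Dnajc22, Dnajc5b and Dnajc5g were under the bacterial controls on all arrays, as were Dnajb7 and Dnajb13.

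For 35 members more than 1 probe set passed the filter, and for 16 of these the probe sets disagreed in sign. Among these 16, the widest ranges were those of Dnajc1 (-0.74 to 0.76), Dnajb12 (-0.93 to 0.25) and Hspa4 (-0.42 to 0.64). The probe sets of Hspb8 agreed in sign but ranged as widely, from -1.22 to -0.11. When the probe sets of each gene were averaged, 13 members were higher (32.5% of all genes) and 22 lower (33.9% of all genes) on both arrays. With the brightest probe set, 19 were higher (33.6% of all genes) and 19 lower (32.7% of all genes).

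The partners of these chaperones were taken as lists, and none of the listed genes passed the test in either direction. Counts of genes higher or lower on both arrays rest on the single WT array here too. Of all genes tested, 33.6% were higher and 32.7% lower on both arrays. The TRiC chaperonin, which folds actin and tubulin in the cytosol, had higher signal on both RASSF9-/- arrays for 8 of 8 subunits, with log2 differences of 0.23 to 0.67 and a median of 0.44. Cct5 gave 8747.9 in WT and 12132.1 and 13261.7 in RASSF9-/- (log2 difference 0.54), Cct6a had a difference of 0.67 and Cct2 one of 0.44, each with an adjusted p of 1 in limma. Without the probe sets that can match several transcripts, 7 of 8 subunits were higher on both arrays. Prefoldin, which hands clients to TRiC, was mixed, with 4 of 6 subunits higher on both arrays and 2 lower (Pfdn4 0.46, Pfdn6 0.29 and Pfdn2 -0.24, as log2 differences).

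HSP90 co-chaperones were higher on both arrays for 9 of 16 genes (33.6% of all genes) and lower for 2 (32.7% of all genes). Their median log2 difference was 0.32. Ruvbl2, an ATPase of the R2TP complex, gave 1138.9 in WT and 2039.6 and 2324.4 in RASSF9-/- (log2 difference 0.93, adjusted p = 0.844 in limma), and its partner Ruvbl1 had a difference of 0.84. Fkbp5, an immunophilin of steroid receptors, gave 132.9 in WT and 387 and 235.2 in RASSF9-/- (log2 difference 1.18, adjusted p = 0.988 in limma). Averaging the Fkbp5 probe sets gave a smaller log2 difference of 0.67. Regulators of the HSP70 cycle were mixed, with 3 of 12 genes higher and 5 lower on both arrays (median -0.10). Bag3, the partner of Hspb8, gave 2071.3 in WT and 1478.1 and 1206.3 in RASSF9-/- (log2 difference -0.63). Bag2, which inhibits the ubiquitin ligase that works with HSP70, gave 991.5 in WT and 434.7 and 604.9 in RASSF9-/- (log2 difference -0.95, adjusted p = 0.963 in limma). Hspbp1 had a difference of 0.60.

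Among 16 genes of mitochondrial import and protein quality control, 7 were higher (33.6% of all genes) and 2 lower (32.7% of all genes) on both arrays. Their median log2 difference was 0.26. Grpel2, the nucleotide exchange factor of Hspa9, gave 2862.1 in WT and 4750 and 4988.2 in RASSF9-/- (log2 difference 0.77, adjusted p = 0.911 in limma). With the mean of its probe sets the log2 difference was only 0.25. The translocase subunits Timm23 and Tomm70a had differences of 0.63 and 0.57. Of the heat shock factor list, 2 genes were tested. Hsbp1l1 gave 223.6 in WT and 93.9 and 100.4 in RASSF9-/- (log2 difference -1.20), and Hsbp1, a negative regulator of heat shock factor 1, had a difference of 0.05. Hsf2, which did not pass the filter, gave 84.9 in WT and 59.2 and 92 in RASSF9-/-. Hsf4, which did not pass it either and is named after its values were seen, gave 18.1 in WT, under the bacterial controls, and 158.1 and 107.4 in RASSF9-/-, above them. Cryab, an alpha-crystallin related to the small heat shock proteins, gave 8704.9 in WT, 7003.3 on array 1 and 20808.8 on array 2.

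Of the 10 ER chaperones outside the family, 7 were higher (33.6% of all genes) and 1 lower (32.7% of all genes) on both arrays. Their median was 0.55 on array 1 and 0.19 on array 2. Hspa5, the HSP70 of the ER, gave 12993 in WT, 33524 on array 1 and 14430.1 on array 2, so that array 1 stood apart, while the mitochondrial Hspa9 was alike on both arrays. Hsp90b1, Dnajc3 and Canx had log2 differences of 0.63, 0.47 and 0.32.

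**Figure D4:**
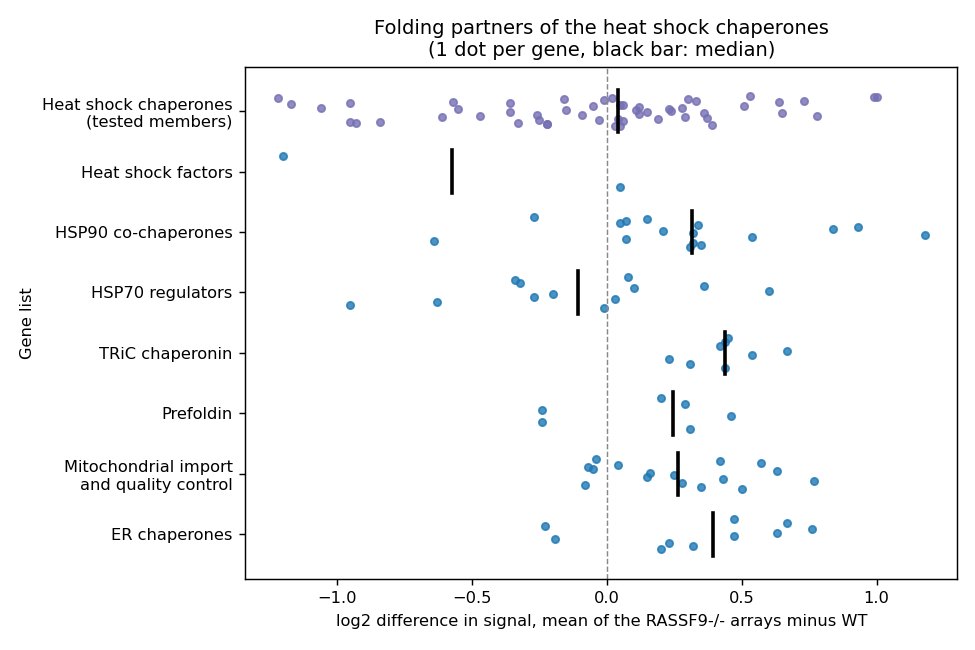
Log2 difference in signal (mean of the RASSF9-/- arrays minus WT) of each tested gene of the family and of 7 partner lists, with 1 dot per gene and a black bar at each median. All 8 TRiC dots lie above 0 around a median of 0.44, while the family itself is spread around 0.04.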

How the data were processed

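Total RNA from 3 keratinocyte cultures was hybridized to Affymetrix Mouse Genome 430 2.0 arrays. The deposited values were linear intensity values (MAS5 signals), scaled by the authors to a trimmed mean of 500 with 2% left out at each end, and no detection calls were used. Groups came from the labels. Control probe sets (64) were left out, signals were taken as log2 with no pseudocount, and probe sets under the 50th percentile of mean log2 signal (82.7 signal units) were removed. For each gene the brightest probe set with a single symbol in the platform annotation was kept. RASSF9-/- was compared with WT in limma 3.58.1 (R 4.3.3; lmFit, eBayes with an intensity trend), two-sided, with Benjamini-Hochberg adjustment over 11089 genes, after a test on simulated data. Background was the highest of 27 Bacillus subtilis control probe sets. Whether a heat shock element was present was read from RefSeq promoters.

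The members and lists were chosen with earlier results of these data known. The named genes were the main stress-inducible members, the 10 higher and 10 lower members with the largest smaller difference on the 2 arrays, the brightest of each class, up to 3 genes of each partner list, Hsf2, and up to 3 members with discordant probe sets. Other genes of 5 or fewer in a count, and members given to complete a class, were named after their values were seen. Alternatives covered scaling, filter, pseudocount, probe set choice, background floor, spread estimate, fold threshold and single arrays.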

Additional observations from a re-analysis of the deposited data

How the results depend on the processing

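With 1 WT array and 2 RASSF9-/- arrays, the precision of every value is limited by the number of arrays. No member passed the adjusted threshold under any scaling, filter, pseudocount, probe set choice, floor or spread estimate run, and the smallest adjusted p of a member in limma ranged from 0.531 to 0.967. The study's methods name t-tests in general but give no test for the arrays. An equal-variance t-test run here called 3 members (Dnajb6, Hspa2 and Hspa9) of 489 genes (4.41% of all genes) at an unadjusted threshold. After Benjamini-Hochberg adjustment it called 0. With no filter, 1 member (Dnajc22) was at least 2-fold higher on both arrays. The 3 at least 2-fold lower were Hspb8, Hspb3 and Dnajb7. Of these, Dnajc22, Hspb3 and Dnajb7 were under the bacterial controls on all 3 arrays. The mean of probe sets left 0 members at least 2-fold lower. Shares over all genes were not taken for these 2 settings. At 1.5-fold, 3 members were higher on both arrays (7.08% of all genes) and 5 lower (6.19% of all genes). At 3-fold, 0 were higher (1.01% of all genes) and 0 lower (0.785% of all genes). Without probe sets that can match several transcripts, 52 members were tested. Of these, 15 were higher (33% of all genes) and 22 lower (33.2% of all genes) on both arrays. The 9 genes called over the whole array became 0 with quantile normalization, with the background floor and without the intensity trend.

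With either RASSF9-/- array left out, which leaves values with no test, the members' median log2 difference was -0.049 to 0.049 (all genes -0.04 to 0.05). The number of members higher was 24 to 29, lower 24 to 29, at least 2-fold higher 0 to 2 and at least 2-fold lower 3 to 4. For these counts the shares over all genes were not taken. Without RASSF9-/- array 1, Dnaja1 was at -0.10, Dnajc8 at -0.08 and Hspb1 at -0.18. Without array 2 they were at 0.16, 0.33 and 0.16, which are also their values within the date code that WT shared. Signs turned for Hspb1 (0.01, each array divided by its median), Dnaja1 (-0.03) and Dnaja2 (-0.01) under quantile normalization, Dnaja1 (-0.01), Dnaja2 (-0.05) and Dnajc3 (-0.13) with the mean of probe sets, and Hspa8 (-0.08) without probe sets that can match several transcripts. Of 428 tested single-gene values, 7 turned their sign and 421 kept their direction and their side of the threshold. A change of filter or of spread estimate alone leaves a gene's difference as it is, so those values could not turn. No named gene came near the threshold under any setting, so keeping its side of it says little. Of 96 values with an array left out, which have no test, 3 turned and 93 kept their direction. The cause was not tested. No paired analysis was possible because WT has a single array.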

Other observations

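Dnajc19, a J-protein of mitochondrial import, was outside the family because its 3 probe sets are shared with the pseudogene Dnajc19-ps. They gave 1093.9 in WT and 673.7 and 1189.7 in RASSF9-/-, 205.8 in WT and 163.2 and 170 in RASSF9-/-, and 43.6 in WT and 86.6 and 60.2 in RASSF9-/-. In the brightest of them the RASSF9-/- arrays fell on either side of WT.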
